A study of Mus musculus with 3 samples.

Results

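Imprinted growth-control genes were followed in KPC78, a cell line from a mouse pancreatic ductal adenocarcinoma. The set was named as H19, Meg3, Peg3, Peg10, Plagl1, Dlk1, Mest, Grb10, Nnat and Ndn, and its genes were found by matching these 10 symbols to the rows of the expression table. A row was found for 8 of the 10, out of 35764 symbols in all, and H19 and Meg3 were not analysed here. The series held 1 group, KPC78 cells whose genotype is labelled WT, with 3 libraries of polyadenylated RNA described as biological replicates. No treatment, time point or second genotype was part of the samples, and the labels give no clone or driver allele of the line. Values were in TPM, a length-corrected share of the transcripts of a library scaled to a fixed sum, so genes could be compared with each other inside each library. How the cultures were separated is not described, so every p-value below measures only the spread between these 3 samples, which may be technical.

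Genomic imprinting is the expression of a gene from 1 parental allele only, set by DNA methylation that was laid down in the egg or the sperm and is kept through every cell division. The zinc-finger protein ZFP57 and its partner TRIM28 keep that methylation in place in the early embryo. In mice many paternally expressed genes promote fetal growth and many maternally expressed genes restrain it, and many are turned down in most organs after birth. TPM sums both alleles and all isoforms of a gene, so imprinting itself was not measured.

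Each library summed to between 999728 and 999776 TPM, and 11938 to 12078 symbols reached 1 TPM. A gene is called detected below when it reached 1 TPM in every library. The number of reads behind a value was not given, so the precision comes from the replicates alone. Of 6 tumour epithelial markers, 5 were detected, with a summed level of 3176 to 3395 TPM, and the sixth, the epithelial adhesion gene Epcam, averaged 0.165 TPM. None of 6 fibroblast markers was detected (1.45 to 1.82 TPM summed), nor any of 5 leukocyte markers (0.0654 to 0.106 TPM summed, Adgre1 at 0) or 4 endothelial markers (0.369 to 0.580 TPM summed). Of 6 endocrine and neural markers, Syp and Tubb3 were detected, at 1.83 and 3.07 TPM, while Ins1, Gcg and Chga were listed at 0 in all libraries.

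Peg3 was the one abundant gene of the set. It averaged 122 ± 17.6 TPM (SD, n = 3) and accounted for 98.2% ± 0.271 (SD, n = 3) of what the 8 genes summed to. The other 7 genes together came to 2.43, 1.56 and 2.69 TPM in replicates 1, 2 and 3. Plagl1 and Grb10 lay on either side of 1 TPM, and Nnat, Dlk1, Ndn, Peg10 and Mest lay below 0.2 TPM in every library. Of the 8 genes 1 was thus detected, against 32.6% of all symbols and 55.4% of the symbols annotated as protein-coding. The median of the 8 means was 0.0761 TPM, beside 0.0337 TPM over all symbols and 4.03 TPM over the protein-coding ones. The count of 1 rested on replicate 2: without it 3 genes, Peg3, Plagl1 and Grb10, passed, and 2, Peg3 and Plagl1, passed with a minimum of 0.5 TPM.

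**Figure D1:**
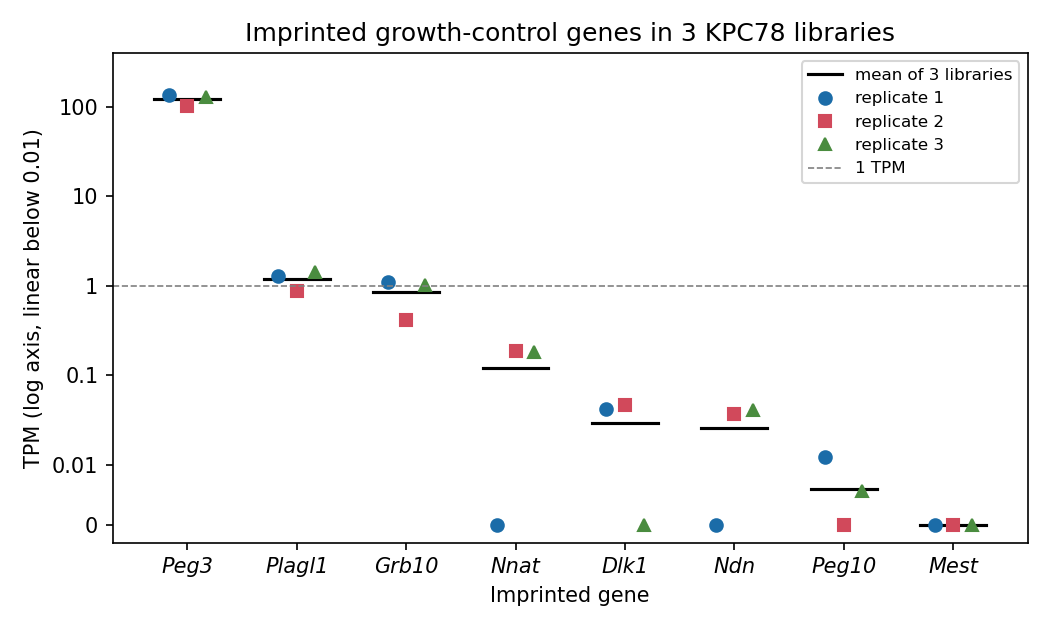
TPM of the 8 genes in each KPC78 library, on a log axis that is linear below 0.01 TPM. Points are libraries, horizontal bars are means of 3 libraries and the dashed line marks 1 TPM. Peg3 sits between 102 and 135 TPM, Plagl1 and Grb10 sit around the dashed line with replicate 2 lowest, and Mest is at 0 in all 3 libraries.

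Imprints are carried by methylated CpG sites, but whether the windows shown here lie in the region that carries an imprint was not examined. The sequence just upstream of the start is shown for the 3 most abundant genes and for Mest, which was listed at 0. Each is the run of 250 bases before a start annotated by RefSeq on GRCm38.p6, written 5′ to 3′ on the strand of the gene, with CpG sites in capitals. The Peg3 run lies at chr7:6730420-6730669 on the minus strand, the Plagl1 run at chr10:13090582-13090831 on the plus strand, the Grb10 run at chr11:12037421-12037670 on the minus strand and the Mest run at chr6:30737800-30738049 on the plus strand. Where RefSeq gave several starts, the window richest in CpG is shown.
Peg3: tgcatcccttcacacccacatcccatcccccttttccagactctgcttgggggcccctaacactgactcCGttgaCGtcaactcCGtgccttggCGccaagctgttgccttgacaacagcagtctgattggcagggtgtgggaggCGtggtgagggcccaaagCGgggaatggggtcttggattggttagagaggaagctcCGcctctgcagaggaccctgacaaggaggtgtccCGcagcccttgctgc
Plagl1: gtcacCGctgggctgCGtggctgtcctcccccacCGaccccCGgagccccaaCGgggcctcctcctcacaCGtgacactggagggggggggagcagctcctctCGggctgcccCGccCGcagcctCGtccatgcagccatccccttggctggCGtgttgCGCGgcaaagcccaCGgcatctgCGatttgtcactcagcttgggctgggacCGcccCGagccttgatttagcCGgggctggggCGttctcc
Grb10: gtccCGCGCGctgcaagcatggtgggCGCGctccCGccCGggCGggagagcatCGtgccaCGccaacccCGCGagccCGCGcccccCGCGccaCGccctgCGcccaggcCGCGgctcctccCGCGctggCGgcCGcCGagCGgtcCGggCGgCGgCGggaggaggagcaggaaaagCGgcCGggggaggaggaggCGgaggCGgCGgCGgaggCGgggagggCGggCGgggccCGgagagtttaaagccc
Mest: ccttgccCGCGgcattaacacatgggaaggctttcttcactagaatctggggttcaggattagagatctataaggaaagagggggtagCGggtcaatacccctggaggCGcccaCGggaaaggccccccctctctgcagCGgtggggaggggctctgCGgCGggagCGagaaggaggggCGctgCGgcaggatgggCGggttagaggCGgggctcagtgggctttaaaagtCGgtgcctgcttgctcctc
The Peg3 run holds 8 CpG sites, the Plagl1 run 19, the Grb10 run 40 and the Mest run 14, against a median of 6 over 32851 windows of the same length. At least as many sites were found in 43.0% of all windows for Peg3, 19.7% for Plagl1, 1.31% for Grb10 and 29.4% for Mest. The Grb10 and Mest windows were picked for their CpG count, so their shares depend on that choice. The Grb10 window not shown holds 8 sites, a count reached by 43.0% of all windows. The Mest windows not shown hold 7 and 14 sites, and 46.3% of all windows hold at least 7. The motif TGCCGC, known from mouse embryonic stem cells as the sequence ZFP57 binds, was searched on both strands (reverse complement GCGGCA). It matched 1 time in the Plagl1 run, 2 times in the Mest run and not in the runs of Peg3 or Grb10, and 8.68% of all windows hold it. These counts describe letters in a window, and neither methylation nor binding was measured. Windows were given for 8 of the 10 genes.

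Peg3 encodes a large zinc-finger DNA-binding protein, paternally expressed, that is known for its part in fetal growth and maternal behaviour in mice. It lies at chr7:6703892-6730431 on the minus strand (GRCm38, ENSMUSG00000002265.16), and its longest coding transcript has 8694 bases. Its level was 135 TPM in replicate 1, 102 TPM in replicate 2 and 129 TPM in replicate 3. Replicate 2 was the lowest, and all 3 values were far above those of any other gene of the set. Peg3 exceeded 96.7% of all symbols and 94.5% of protein-coding symbols in mean TPM, with 1167 symbols above it. Of the 21044 other genes above 0 in at least 1 library, 93.1% were lower than Peg3 and 4.46% were higher at an adjusted p below 0.05, so a gene lower than Peg3 is the usual case here. Among 394 protein-coding genes with a symbol of the form Zfp and a number, a list chosen after its values were seen, 2 were above Peg3, the highest at 289 TPM, and the median was 6.44 TPM.

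Within the set, the Peg3 level was 105 ± 13.6 times that of Plagl1 (SD, n = 3), a log2 ratio of 5.81 on TPM + 1 (95% CI 5.50 to 6.12, limma, adjusted p = 4.18e-10). Set against Grb10 the ratio was 164 ± 69.5 (SD, n = 3), a log2 ratio of 6.07 (95% CI 5.68 to 6.45, limma, adjusted p = 7.71e-09). The wide SD of the second ratio came with replicate 2, where Peg3 stood at 244 times Grb10, against 124 times in each of the others. The log2 ratio of any pair with a gene near or below 1 TPM depends on the pseudocount. For Peg3 over Plagl1 it was 6.58 with 0.1 TPM and 4.35 with 5 TPM, with the same direction and, in the planned fit, the same call.

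Usp29, a ubiquitin-specific protease gene, starts 147 bases from Peg3 on the opposite strand, and the upstream windows of both genes share 163 bases. The level of Peg3 was 22.2 ± 2.71 times that of Usp29 (SD, n = 3), with Usp29 at 5.87, 5.32 and 5.28 TPM in replicates 1, 2 and 3. The log2 ratio of Peg3 over Usp29 was 4.24 (95% CI 3.96 to 4.51, limma, adjusted p = 1.52e-09), and Peg3 was higher in 3 of 3 libraries. Both genes of this divergent pair were detected, and both are paternally expressed in mice. The other listed genes of the locus were not detected. Zim1, a protein-coding zinc-finger gene maternally expressed in mice, averaged 0.00904 TPM. Zfp264, annotated as a pseudogene, had 0.0236 TPM in replicate 2 and 0 in the others. Zim3, annotated as an antisense transcript, was listed at 0 in all 3 libraries. Peg3 over Zim1 had a log2 ratio of 6.92 (95% CI 6.68 to 7.16, limma, adjusted p = 1.08e-07). The size of that ratio is set by the pseudocount, being 10.12 with 0.1 TPM and 4.66 with 5 TPM, and the interval covers none of this.

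Peg3 varied more between libraries than genes of its level usually did. Its coefficient of variation was 14.4%, against a median of 3.81% over the 2006 genes within 2-fold of its mean, of which 98.7% varied less. In replicate 2, log2(TPM + 1) of Peg3 was 0.37 below the mean of replicates 1 and 3. Plagl1 was 0.33 below and Grb10 0.54 below in the same library, so the 3 most abundant genes of the set shared their lowest library. The added 1 TPM shrinks such differences for genes near 1 TPM, so those of Plagl1 and Grb10 understate their fall. Grb10 had 0.418 TPM in replicate 2, against 1.09 and 1.04 TPM in replicates 1 and 3. The share of all genes lowest in replicate 2 was not counted, so a shared lowest library cannot be read as particular to the set. The coefficient of variation was 24.2% for Plagl1 and 44.1% for Grb10. Medians over genes within 2-fold of their means were 21.9% and 26.6%, and 55.9% and 72.2% of those genes varied less. Long transcripts as a whole were lower in replicate 2. Over genes averaging 10 TPM or more, the median difference was −0.0027 for 2159 genes with a coding transcript under 2 kb, −0.078 for 4363 genes of 2 to 5 kb, −0.15 for 1194 genes of 5 to 8 kb and −0.26 for 377 genes of 8 kb or longer. Peg3 belongs to the longest class, in which the central 80% of genes ran from −0.48 to −0.058 and 23.6% were lower than Peg3. In the class of 5 to 8 kb the central 80% ran from −0.29 to −0.018. A value below replicates 1 and 3 was thus the usual case for genes of 5 kb or longer. The longest coding transcripts of Plagl1 and Grb10 have 5260 and 5061 bases, but both genes averaged under 10 TPM and belong to none of these classes. The part of transcript length in the lower values of replicate 2 was not tested.

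**Figure D2:**
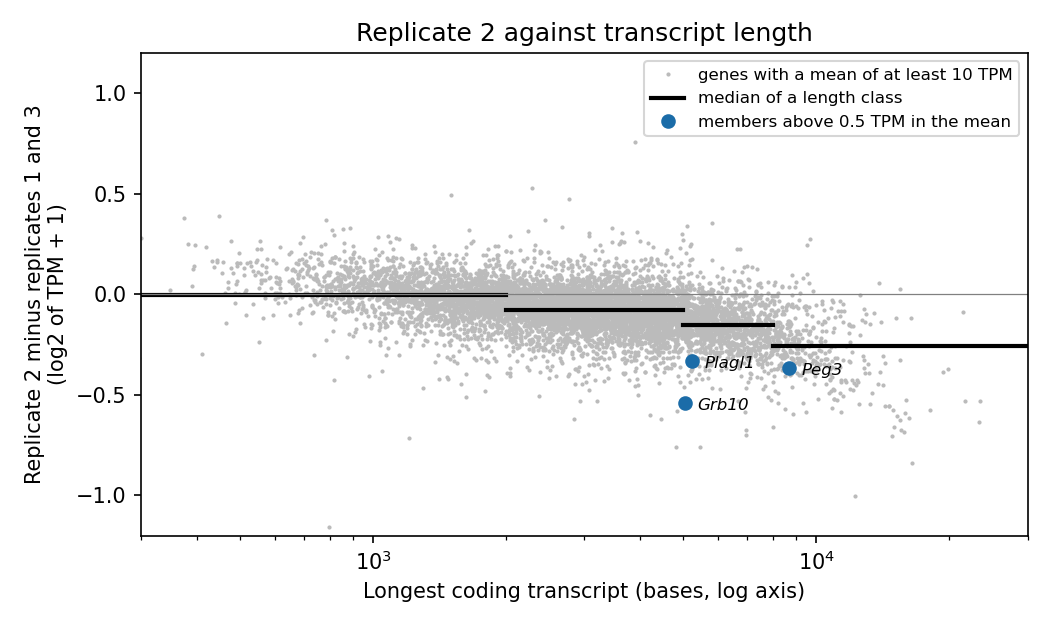
Difference of replicate 2 from the mean of replicates 1 and 3, in log2(TPM + 1), against the length of the longest coding transcript on a log axis. Grey dots are genes averaging 10 TPM or more (3 lie outside the horizontal range), black bars are medians of 4 length classes and blue points are the members above 0.5 TPM. The medians step down from −0.0027 to −0.26 with length. Peg3 lies at −0.37, Plagl1 at −0.33 and Grb10 at −0.54, each under the bar at its length. Plagl1 and Grb10 average under 10 TPM, so they are not among the genes behind the bars. The added 1 TPM shrinks the differences of these 2 genes, which cannot be set against Peg3 or the bars by size.

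Plagl1 encodes a zinc-finger transcription factor, paternally expressed, that is known to arrest the cell cycle and to regulate other imprinted genes in mice. It lies at chr10:13060504-13131694 on the plus strand. Its level was 1.28, 0.868 and 1.42 TPM in replicates 1, 2 and 3, a mean of 1.19 ± 0.289 TPM (SD, n = 3). Replicate 2 fell short of 1 TPM, so Plagl1 was not detected by the rule although its mean was above 1. It was exceeded by 54.2% of the 21044 genes tested against it and was above 41.7% of them at an adjusted p below 0.05.

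The relatives of Plagl1 were more abundant. Plag1, a growth-promoting zinc-finger factor, averaged 6.93 ± 1.24 TPM (SD, n = 3), and the level of Plagl1 was 0.172 ± 0.0279 of it. The log2 ratio of Plagl1 over Plag1 was −1.85 (95% CI −2.20 to −1.5, limma, adjusted p = 2.52e-06). Plagl2, the third factor of the family, reached 21.9 ± 1.5 TPM (SD, n = 3), and the log2 ratio of Plagl1 over Plagl2 was −3.39 (95% CI −3.67 to −3.12, limma, adjusted p = 1.69e-07). Plagl1 was the lowest of the family in 3 of 3 libraries.

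Genes around Plagl1 on chromosome 10 did not share its level. Ltv1, a ribosome assembly factor, averaged 13.6 ± 0.627 TPM and Fuca2, a fucosidase, 7.69 ± 0.974 TPM (SD, n = 3 each). Plagl1 was lower than both, with log2 ratios of −2.74 to Ltv1 (95% CI −3.02 to −2.47) and −1.99 to Fuca2 (95% CI −2.30 to −1.68). It was higher than Phactr2, which had 0.0454 TPM in replicate 1 and 0 in the others, by a log2 ratio of 1.10 (95% CI 0.83 to 1.38). All 3 ratios passed the threshold (limma, adjusted p = 5.50e-07 for Ltv1, 6.75e-07 for Fuca2 and 2.64e-04 for Phactr2).

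Grb10 encodes an adaptor protein that binds the insulin and IGF1 receptors and restrains their signal, and it is maternally expressed in most mouse tissues. It lies at chr11:11930508-12038683 on the minus strand. Its level was 1.09, 0.418 and 1.04 TPM in replicates 1, 2 and 3, a mean of 0.850 ± 0.375 TPM (SD, n = 3). Replicates 1 and 3 lay just above 1 TPM, and replicate 2 at less than either. Of the 12014 genes tested against it, 96.1% were higher at an adjusted p below 0.05, because a pair with both means below 1 TPM was not tested. Without replicate 2 the mean of Grb10 passed 1 TPM, and of 20013 genes then tested 11468 were higher than Grb10 and 7481 lower. Plagl1 and Grb10 are neighbours in the order of levels and did not differ beyond their spread. Plagl1 was above Grb10 in 3 of 3 libraries, but the log2 ratio of 0.26 missed the threshold (95% CI −0.14 to 0.65, limma, adjusted p = 0.173).

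Receptors and substrates of the insulin and IGF pathway were detected where Grb10 was not. The insulin receptor gene Insr averaged 8.34 ± 1.55 TPM and the IGF1 receptor gene Igf1r 21.03 ± 3.64 TPM, and their docking proteins Irs1 and Irs2 averaged 36.7 ± 4.74 and 20.5 ± 2.13 TPM (SD, n = 3 each). Grb10 was lower than each of the 4 in 3 of 3 libraries, with log2 ratios of −2.34 to Insr, −3.58 to Igf1r, −4.36 to Irs1 and −3.55 to Irs2 (limma, adjusted p = 9.75e-08 to 1.76e-06). Grb14, a related adaptor, reached 4.65 ± 0.575 TPM (SD, n = 3), and the log2 ratio of Grb10 over Grb14 was −1.63 (95% CI −2.02 to −1.24, limma, adjusted p = 2.39e-05). Grb7, the remaining adaptor of the family, averaged 0.10 TPM.

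Of the genes flanking Grb10, Ddc, which encodes the enzyme that makes dopamine and serotonin from their precursors, averaged 2.96 ± 0.547 TPM (SD, n = 3). The log2 ratio of Grb10 over Ddc was −1.11 (95% CI −1.52 to −0.70, limma, adjusted p = 2.89e-04). Cobl, an actin nucleator, had 0.994, 1.64 and 1.38 TPM in replicates 1, 2 and 3. Grb10 was above Cobl in replicate 1 and below it in the others, and the log2 ratio of −0.35 missed the threshold (95% CI −0.75 to 0.05, limma, adjusted p = 0.0805).

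Dlk1 encodes a membrane-bound and shed protein of the Delta and Notch family, paternally expressed, that holds precursor cells back from differentiation and marks fetal tissues and some endocrine cells. It lies at chr12:109452823-109463336 on the plus strand and had 0.0422 TPM in replicate 1, 0.0472 TPM in replicate 2 and 0 in replicate 3. All 3 values were far under 1 TPM. The other protein-coding genes of its imprinted cluster were also below 1 TPM in every library: Rtl1, a retrotransposon-derived gene needed for placental vessels, had 0.00524 to 0.0118 TPM, and Dio3, which inactivates thyroid hormone, had 0.252, 0.129 and 0 TPM in replicates 1, 2 and 3. Begain, at the edge of the cluster, had 0.0723 TPM in replicate 3 and 0 in the others. Dlk2, the unimprinted relative of Dlk1, was detected at 9.55 ± 0.585 TPM, as were the receptors Notch1 at 4.52 ± 1.05 TPM and Notch2 at 18.2 ± 2.36 TPM (SD, n = 3 each), while Notch3 averaged 0.926 TPM.

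Ndn encodes necdin, a MAGE-family protein, paternally expressed, that is best known for holding neurons out of the cell cycle. It lies at chr7:62346569-62350262 on the plus strand and had 0, 0.0369 and 0.0414 TPM in replicates 1, 2 and 3. Levels differed widely along its imprinted region. Magel2, another MAGE gene, was listed at 0 in all libraries, and Mkrn3, a ubiquitin ligase gene, had 1.07, 0.782 and 1.22 TPM in replicates 1, 2 and 3. Snrpn, the splicing-factor gene at the region's imprinting centre, had 20.7, 20.8 and 19.2 TPM in replicates 1, 2 and 3. Ube3a, the maternally expressed ubiquitin ligase gene of mouse neurons, averaged 27.1 ± 1.97 TPM (SD, n = 3). Snurf, which shares a transcript with Snrpn, was listed at 33.3, 15.5 and 15.5 TPM in replicates 1, 2 and 3, and the way reads were split between the pair is uncertain.

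Nnat encodes neuronatin, a small membrane protein of the endoplasmic reticulum, paternally expressed and known from brain and pancreatic beta cells. It lies at chr2:157560078-157562522 on the plus strand, inside the Blcap gene (chr2:157556362-157571274, minus strand). Nnat had 0 TPM in replicate 1, 0.186 TPM in replicate 2 and 0.181 TPM in replicate 3, all below 1 TPM, while its host Blcap, known for loss in bladder cancer, averaged 20.7 ± 1.57 TPM (SD, n = 3). Whether reads were assigned by strand is not given in the sources used here. Whether exons of the pair overlap was not examined, so how far their reads can be told apart is not known.

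Peg10 encodes a protein taken over from a retrotransposon, paternally expressed and needed for the mouse placenta. It lies at chr6:4747306-4760517 on the plus strand and had 0.0124, 0 and 0.00569 TPM in replicates 1, 2 and 3. Sgce, a paternally expressed sarcoglycan gene that starts 99 bases away on the opposite strand, had 0.0126 TPM in replicate 3 and 0 in the others. The divergent pair Peg10 and Sgce was therefore undetected on both sides, whereas the divergent pair Peg3 and Usp29 was detected on both. Further along chromosome 6, Pon2, a lactonase gene, averaged 62.8 ± 1.45 TPM, Casd1, a sialic acid acetyltransferase gene, 6.21 ± 0.791 TPM and Pon3 4.46 ± 0.308 TPM (SD, n = 3 each). Ppp1r9a, which encodes an actin-binding protein of neurons, averaged 0.167 TPM.

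Mest encodes an enzyme of the alpha/beta hydrolase fold, paternally expressed and linked to fetal growth and fat-cell size in mice. It lies at chr6:30723547-30748465 on the plus strand and was the one gene of the set listed at 0 in all 3 libraries, as were 14720 of the 35764 symbols. Copg2, a coat protein gene of Golgi vesicles that overlaps its 3′ end on the minus strand (chr6:30747554-30896794), had 41.5, 41.7 and 41.7 TPM in replicates 1, 2 and 3. Cep41, a gene of the primary cilium on the other side, averaged 13.8 ± 0.361 TPM (SD, n = 3). Klf14, a maternally expressed transcription factor gene, was listed at 0 in all libraries, and Tsga13 had 0.180 TPM in replicate 3 and 0 in the others.

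The 5 lowest genes, Nnat, Dlk1, Ndn, Peg10 and Mest, have no order among themselves that the test could show, since both means of each such pair were below 1 TPM. Plagl1 was above each of the 5 in 3 of 3 libraries, with log2 ratios on TPM + 1 of 0.96 to Nnat, 1.08 to Dlk1, 1.09 to Ndn, 1.11 to Peg10 and 1.12 to Mest (limma, adjusted p = 1.20e-04 to 2.94e-04). The pseudocount sets the size of these ratios, which were 2.66 to 3.66 with 0.1 TPM and 0.27 to 0.31 with 5 TPM.

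**Figure D3:**
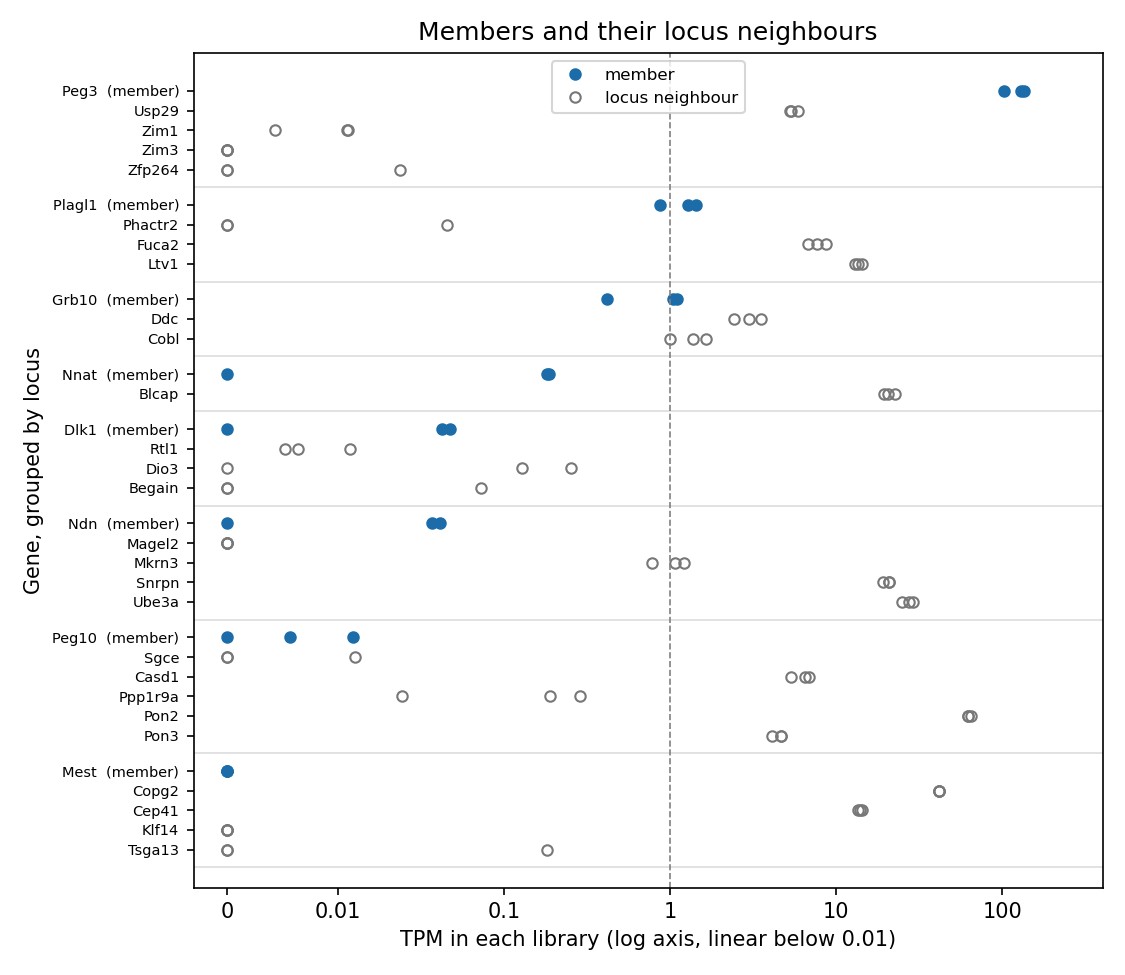
TPM in each of the 3 libraries for the 8 members (filled) and the genes of their loci (open), grouped by locus, on a log axis that is linear below 0.01 TPM; the dashed line marks 1 TPM. Peg3 lies above every gene of its locus. The groups of Nnat, Peg10, Mest and Ndn each hold a member below 0.2 TPM and an abundant gene. In the mean these genes are Blcap at 20.7, Pon2 at 62.8, Copg2 at 41.6 and Ube3a at 27.1 TPM.

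Of 30 locus genes with a row, Dlk1 included as a neighbour of Meg3, 14 were detected, or 46.7%, against 55.4% of protein-coding symbols and 32.6% of all symbols. H19 (chr7:142575529-142578143, minus strand) and Meg3 (chr12:109541001-109571726, plus strand) are maternally expressed long non-coding RNAs, and of 5847 lincRNA symbols of the GENCODE M21 annotation 25 had a row, against 19527 of 21924 protein-coding symbols. Igf2, the paternally expressed fetal growth factor that shares its enhancers with H19, had 20.5, 24.8 and 29.1 TPM in replicates 1, 2 and 3, a mean of 24.8 ± 4.28 TPM (SD, n = 3). Its lowest library was replicate 1, not replicate 2 as for Peg3, Plagl1 and Grb10. Its coefficient of variation, 17.3%, was above that of 96.9% of the 4773 genes within 2-fold of its mean. Beside Igf2, the mitochondrial ribosomal gene Mrpl23 averaged 12.97 ± 2.01 TPM (SD, n = 3), and the insulin gene Ins2 was listed at 0 in all libraries.

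Peg3 stood at 5.05 ± 1.36 times Igf2 (SD, n = 3), a log2 ratio of 2.26 (95% CI 1.94 to 2.57, limma, adjusted p = 3.16e-07). Igf2r, the maternally expressed receptor that clears IGF2, had 26.0, 20.7 and 26.3 TPM in replicates 1, 2 and 3, and its ratio was steadier. Peg3 stood at 5.02 ± 0.167 times Igf2r (SD, n = 3), a log2 ratio of 2.28 (95% CI 2.00 to 2.56, limma, adjusted p = 1.13e-07). Like Peg3, Igf2r was lowest in replicate 2, 0.32 below the mean of replicates 1 and 3 in log2(TPM + 1). Its longest coding transcript has 8887 bases, and genes of 8 kb or longer had a median difference of −0.26 in that library.

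Among all 51 listed imprinted genes with a row, Peg3 ranked 3 by mean TPM. H13, a signal peptide peptidase gene, and Cd81, a tetraspanin gene imprinted mainly in placenta, were above it. H13 averaged 177 ± 2.51 TPM, and Peg3 was lower by a log2 ratio of −0.54 (95% CI −0.79 to −0.30, limma, adjusted p = 0.00285). Cd81 averaged 182 ± 11.4 TPM, and Peg3 was lower by a log2 ratio of −0.58 (95% CI −0.82 to −0.33, limma, adjusted p = 0.00133). Peg3 was lower than each in 3 of 3 libraries, but without replicate 3 both calls were lost in the planned fit (limma, adjusted p = 0.0780 for H13 and 0.0865 for Cd81).

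Outside the set, 14 of 29 other imprinted genes with a row were detected, 7 of 16 paternally and 7 of 13 maternally expressed, with a median of 1.02 TPM over all 29. As shares these are 48.3% of the 29, 43.8% of the paternally and 53.8% of the maternally expressed genes, each below the 55.4% of protein-coding symbols, so the counts show nothing particular to imprinted genes. The highest genes of the paternally expressed list were Igf2, Snurf, Inpp5f, Snrpn, Mcts2 and Impact, at 8.67 to 24.8 TPM. Mcts2 lies inside H13 on the same strand, so the way reads were split between these genes is uncertain. The highest maternally expressed genes were H13, Copg2, Ube3a, Igf2r, Atp10a and Phlda2, at 5.57 to 177 TPM. Magel2 of the paternal list was listed at 0 in all libraries, as were Cdkn1c, a cell-cycle inhibitor gene, and Klf14 of the maternal list. Peg3 was above Copg2 by a log2 ratio of 1.52 (95% CI 1.28 to 1.76, limma, adjusted p = 3.01e-05) and above Snrpn by 2.53 (95% CI 2.28 to 2.77, limma, adjusted p = 5.19e-07).

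**Figure D4:**
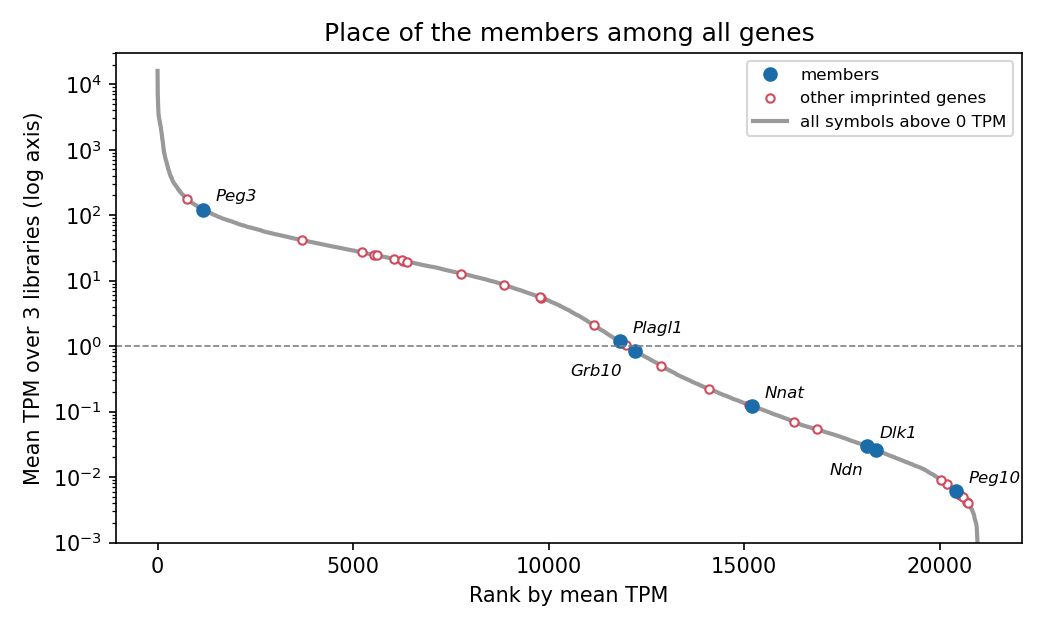
Mean TPM over 3 libraries on a log axis against rank, for all symbols above 0 TPM (grey line), the members (filled) and other imprinted genes (open). Peg3 is in the upper part of the curve at 122 TPM, Plagl1 and Grb10 lie at the 1 TPM line, and Nnat, Dlk1, Ndn and Peg10 lie in the tail; Mest, at 0, is not drawn.

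Of 16 listed genes of the machinery that sets, keeps or removes DNA methylation at imprints, 12 were detected, or 75.0%, against 55.4% of protein-coding symbols. The 12 include the methyltransferase gene Dnmt3a, which sets methylation, and the dioxygenase genes Tet2 and Tet3, which remove it. Their relatives Dnmt3b and Tet1 were not detected. Dnmt3b had 1.38, 0.955 and 1.77 TPM and Tet1 1.26, 1.14 and 0.0828 TPM in replicates 1, 2 and 3. Trim28 was the most abundant at 216 ± 6.28 TPM, followed by the insulator gene Ctcf at 47.8 ± 1.43 TPM, the maintenance methyltransferase gene Dnmt1 at 38.6 ± 3.71 TPM and its partner Uhrf1 at 36.7 ± 2.28 TPM (SD, n = 3 each). Zfp57, known mainly from mouse oocytes and early embryos, had 36.3, 29.3 and 33.8 TPM in replicates 1, 2 and 3. The chromatin gene Smchd1 averaged 30.7 ± 4.37 TPM (SD, n = 3). Dppa3, which protects imprints in the egg and zygote, and Dnmt3l, which helps to set them in germ cells, were listed at 0 in all libraries. Peg3 was below Trim28 by a log2 ratio of −0.83 (95% CI −1.07 to −0.59, limma, adjusted p = 4.17e-04) and above Zfp57 by 1.85 (95% CI 1.59 to 2.11, limma, adjusted p = 5.39e-07). The ratio of Peg3 to Zfp57 was 3.73, 3.48 and 3.81 in replicates 1, 2 and 3, and both genes were lowest in replicate 2.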

How the data were processed

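Polyadenylated RNA of 3 KPC78 libraries was enriched with oligo-dT and made into TruSeq libraries, per the labels' protocols. The authors deposited TPM per gene symbol. The tools bcl2fastq 2.19 and kallisto 0.44.0 and the build GRCm38.p6 are listed in the submitters' processing notes, without roles, and the annotation used is not given in the sources used here. Reads shared by paralogs, overlapping genes or host and nested genes are split by a model, read depth cannot be recovered from TPM, and no counting intervals are given. Of a short second sheet, 3 columns could not be matched to a sample by name and were not used.

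Members were matched by symbol, and GENCODE M21 (GRCm38) gave positions and transcript lengths. For each member, log2 of (TPM + 1) was compared with every gene above 0 in at least 1 library, within each library, with limma 3.58.1 in R 4.3.3 (two-sided, Benjamini-Hochberg over all genes and the 8 members, threshold 0.05). A pair was left untested where neither gene averaged 1 TPM. All ratios of a member share its 3 values, so the empirical Bayes spread of that fit was pooled over dependent ratios and its p-values were too small to print. Intervals and adjusted p-values in the text are therefore from a limma fit in which the spread of each gene was moderated on its own. This alternative was chosen after seeing the data. It added the spreads of both genes of a pair as if independent, so their pairing within a library was not used. Counts of calls are from the planned fit. All 36 pairs examined had the same call in both fits. The fits were tested on simulated data. There Peg3 was the only member and genes were drawn independently, so library effects shared between genes were not covered. A fold is the mean over libraries of the ratio of TPM. Python 3.11.15, pandas 2.3.3 and matplotlib 3.10.9 were used.

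The members and lists were chosen with earlier results of these data known. Named were all members, locus genes and relatives (with values for those with a mean of at least 1 TPM and for Igf2), and of the other imprinted and imprint maintenance lists the 6 genes of highest mean and those at 0 in all libraries. Other genes named were chosen after their values were seen.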

Additional observations from a re-analysis of the deposited data

How the results depend on the processing

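Of 357 values of the 36 gene pairs under other settings, 354 kept their direction and their side of the threshold and none reversed. Except where each gene was moderated on its own, these calls came from the planned fit, whose p-values were too small to print. They therefore say little about the threshold beyond direction. The printed intervals and adjusted p-values were not recomputed under the other settings. The 3 that lost the threshold were Peg3 against H13, Cd81 and Rtl3 without replicate 3. The size of ratios to genes near or below 1 TPM moved with the pseudocount, Grb10 over Igf1r for example being −4.55 with 0.1 TPM and −2.15 with 5 TPM on the log2 scale. The number of members detected was 1, but 2 with a minimum of 0.5 TPM, 2 with the minimum applied to the mean, 2 after rescaling TPM without mitochondrial and ribosomal protein genes, and 1 to 3 when each replicate was left out. Rescaling put the mean of Peg3 at 166 TPM and that of Plagl1 at 1.62 TPM. Genes differing from Peg3 numbered 20531, against 11455 with only genes of a mean of at least 1 TPM and 35248 with no filter, and for Plagl1 20172, 11362 and 34815, where fewer or more genes were tested. For Grb10, 11540 genes became 18879 after rescaling and 11263 to 18949 when each replicate was left out, the highest without replicate 2, since its mean then passed 1 TPM and genes below 1 TPM entered. No paired analysis between groups was possible because no second group exists to pair with. Ratios were formed inside a library in the planned fit, but not in the fit behind the printed intervals and adjusted p-values. Depth is unknown, so whether values below 0.2 TPM differ from 0 cannot be judged.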

Other observations

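Some relatives of Peg10 and Ndn were abundant in KPC78 cells and others were at or near 0. Of 11 listed relatives of Peg10 with a row, genes taken over from the same kind of retrotransposon, 4 were detected, or 36.4%, against 55.4% of protein-coding symbols. Rtl3 had 86.2, 74.3 and 80.9 TPM in replicates 1, 2 and 3, Rtl8b averaged 28.0 ± 0.323 TPM, Rtl8a 15.1 ± 1.25 TPM and Rtl10 7.41 ± 0.322 TPM (SD, n = 3 each). The Rtl8 genes are near-identical copies, so their split is uncertain, and Rtl8c was listed at 0.559, 1.23 and 3.22 TPM in replicates 1, 2 and 3. Rtl6 and Ldoc1 were listed at 0 in all libraries. Peg3 was above Rtl3 by a log2 ratio of 0.59 (95% CI 0.34 to 0.83, limma, adjusted p = 0.00105), a call lost without replicate 3 in the planned fit (limma, adjusted p = 0.0672). Of 7 relatives of Ndn, the X-linked MAGE genes Maged1 at 148 ± 5.49 TPM and Maged2 at 23.2 ± 1.33 TPM and the chromosome-maintenance gene Nsmce3 at 7.13 ± 0.435 TPM were detected (SD, n = 3 each), while Magee2 and Magel2 were listed at 0 in all libraries; the detected share was 42.9%.

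Of 14 genes imprinted mainly in placenta, 6 were detected, or 42.9%, against 55.4% of protein-coding symbols and 32.6% of all symbols. Besides Cd81 these were the histone chaperone gene Nap1l4 at 82.0 ± 1.54 TPM, Gatm, which encodes the first enzyme of creatine synthesis, at 37.2 ± 1.98 TPM, Tssc4 at 22.6 ± 0.595 TPM, the lipid transfer gene Osbpl5 at 15.4 ± 0.905 TPM and Tspan32 at 1.83 ± 0.835 TPM (SD, n = 3 each). The protease inhibitor gene Tfpi2 and the cation transporter genes Slc22a2 and Slc22a3 were listed at 0 in all libraries.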
